A study of Mus musculus with 19 samples.

Results

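The transcripts described here are 10 markers of Kupffer cells, the macrophages that live in the sinusoids of the liver. They are Clec4f, Vsig4, Timd4, Cd5l, Marco, Cd163, C1qa, C1qb, C1qc and Csf1r, taken by gene symbol from a count table of 55421 genes, and each matched 1 row. RNA came from livers of adult male C57BL/6 mice that carry an inducible transgene joining c-Jun to Fra-2, which are AP-1 proteins, and from littermates as controls. Doxycycline keeps the transgene off, and both genotypes were taken off it when 3 weeks old. The groups were 3 mutants and 6 controls at 2 months after the withdrawal, and at 9 months 4 visible tumours and 3 pieces of liver without visible tumour, both from the same 3 mutants, and 3 controls. Mutant 1 gave 2 of the tumours, which were summed, so that 19 libraries stand for 15 animals and every n counts animals. The sources used here do not give the promoter that drives the transgene or the cells in which it is active. The labels call the cells of all 9-month mutant samples, tumour-free tissue included, mostly transformed hepatocytes, and those of all other samples mostly hepatocytes.

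Kupffer cells descend from embryonic precursors, renew themselves in the liver and clear particles, dying cells and old red blood cells from the blood. Their survival depends on the receptor CSF1R and its ligands CSF1 and IL-34, and their identity on transcription factors such as LXR alpha and SpiC and on signals from sinusoidal endothelium and stellate cells. When resident cells are lost, monocytes from the blood can enter the empty niche and take on resident genes step by step, with Timd4 among the last. The members were set in 2 classes from this background, drawn with earlier results of these data known. A resident class holds Clec4f, Cd5l, Vsig4, Timd4, Marco and Cd163. A shared class holds C1qa, C1qb, C1qc and Csf1r, which many tissue macrophages carry, and Csf1r also monocytes.

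Library totals ran from 14.29 to 22.06 M counts. Levels are CPM, counts scaled to a common library size after TMM normalization, and a value with ± is a mean with its SD over animals. Changes are log2 ratios with their SE. Fosl2, the gene of Fra-2, separated the genotypes, at 639.7 to 886.6 CPM in 2-month mutants against 8.38 to 19.2 CPM in their controls, at 404.5 to 757.7 CPM in tumours and 787.6 to 936.4 CPM in tumour-free tissue against 9.36 to 19.8 CPM in 9-month controls. Jun did so except in the 9-month control numbered 1, which stood at 387.2 CPM against 22.9 and 40.4 CPM in the other two and above 1 of the 4 tumours. Since the 2 times were sequenced in different runs, an effect of time and one of run cannot be told apart. In whole liver, fewer Kupffer cells and less RNA per Kupffer cell cannot be told apart either.

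The promoter windows of 4 members that kept a narrow count ratio in pairs are shown, since the transgene encodes DNA-binding proteins. Each runs from 250 bases before to 50 bases after the start site on the gene's own strand (RefSeq, build GRCm38.p6). Clec4f lies on the minus strand at chr6:83656067-83656366, Cd5l on the plus strand at chr3:87357631-87357930, and C1qb and C1qc on the minus strand at chr4:136886151-136886450 and chr4:136892865-136893164. Capitals mark a match to the PU.1 letters GAGGAAG on either strand.
Clec4f: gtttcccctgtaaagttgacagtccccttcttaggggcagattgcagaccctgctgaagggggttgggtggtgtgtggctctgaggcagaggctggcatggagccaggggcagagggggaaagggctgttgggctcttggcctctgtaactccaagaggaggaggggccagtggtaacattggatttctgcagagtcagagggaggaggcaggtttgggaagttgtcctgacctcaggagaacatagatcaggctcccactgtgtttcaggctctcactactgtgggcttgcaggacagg
Cd5l: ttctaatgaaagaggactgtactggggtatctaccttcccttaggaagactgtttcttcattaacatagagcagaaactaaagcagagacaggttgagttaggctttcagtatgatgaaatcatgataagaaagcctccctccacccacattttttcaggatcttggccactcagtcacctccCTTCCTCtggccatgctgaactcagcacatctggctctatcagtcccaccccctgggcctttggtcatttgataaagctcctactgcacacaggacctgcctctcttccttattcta
C1qb: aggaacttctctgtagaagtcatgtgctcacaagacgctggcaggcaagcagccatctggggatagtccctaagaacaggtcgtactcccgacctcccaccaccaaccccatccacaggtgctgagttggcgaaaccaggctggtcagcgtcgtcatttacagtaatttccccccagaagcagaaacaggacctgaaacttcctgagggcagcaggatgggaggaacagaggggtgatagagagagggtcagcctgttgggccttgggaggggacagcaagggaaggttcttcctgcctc
C1qc: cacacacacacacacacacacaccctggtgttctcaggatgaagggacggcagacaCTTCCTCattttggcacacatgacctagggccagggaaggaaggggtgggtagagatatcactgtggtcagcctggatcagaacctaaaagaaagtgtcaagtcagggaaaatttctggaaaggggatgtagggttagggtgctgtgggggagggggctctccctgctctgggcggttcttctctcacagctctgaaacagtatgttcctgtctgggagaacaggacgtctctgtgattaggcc
Windows were held for 8 members, all but C1qa and Csf1r. The AP-1 letters TGANTCA, searched on both strands, occurred in 0 of the 8 windows and in 7.81% of the 32851 windows of all genes. The PU.1 letters, of the factor that macrophages need, occurred in 3 windows, those of Cd5l, Marco and C1qc, and in 13.6% of all. The MAF half-site letters TGCTGAC occurred in 1, that of Timd4, and in 4.67% of all. A match describes letters only, and no match says nothing of a factor's binding elsewhere.

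Per kilobase of exon, Cd5l and Clec4f stood highest in the 2-month controls, at 61.95 ± 15.6 and 52.96 ± 10.8 CPM per kb (n = 6). C1qb (51.5 ± 8.35) and C1qa (51.4 ± 7.23) lay next to them, and these 4 neighbours overlapped in their spread. C1qc (28.1 ± 4.996) and Vsig4 (26.8 ± 6.41) followed, and also overlapped. Csf1r stood at 12.4 ± 2.76, Marco at 5.84 ± 5.86, Timd4 at 5.03 ± 1.63 and Cd163 at 2.65 ± 0.779 CPM per kb, the last 3 with overlapping ranges. In tumours (n = 3) the order was led by the shared class instead, with C1qb at 86.6 ± 19.3 and C1qa at 77.8 ± 16.1 CPM per kb, above Cd5l at 27.99 ± 26.6 and Clec4f at 21.3 ± 19.2. In tumour-free tissue (n = 3) C1qb (78.75 ± 9.175) and C1qa (71.23 ± 8.635) also had higher means than Cd5l (59.42 ± 6.224) and Clec4f (51.5 ± 1.832). In 9-month controls (n = 3) Cd5l (41.62 ± 3.538), C1qa (40.02 ± 13.42), C1qb (38.82 ± 8.915) and Clec4f (33.76 ± 4.141) had overlapping ranges. C1qa, C1qc and C1qb, the 3 chains of C1q that opens the classical complement pathway, lie side by side on the minus strand of chromosome 4 in GRCm38, between positions 136880129 and 136898803.

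**Figure D1:**
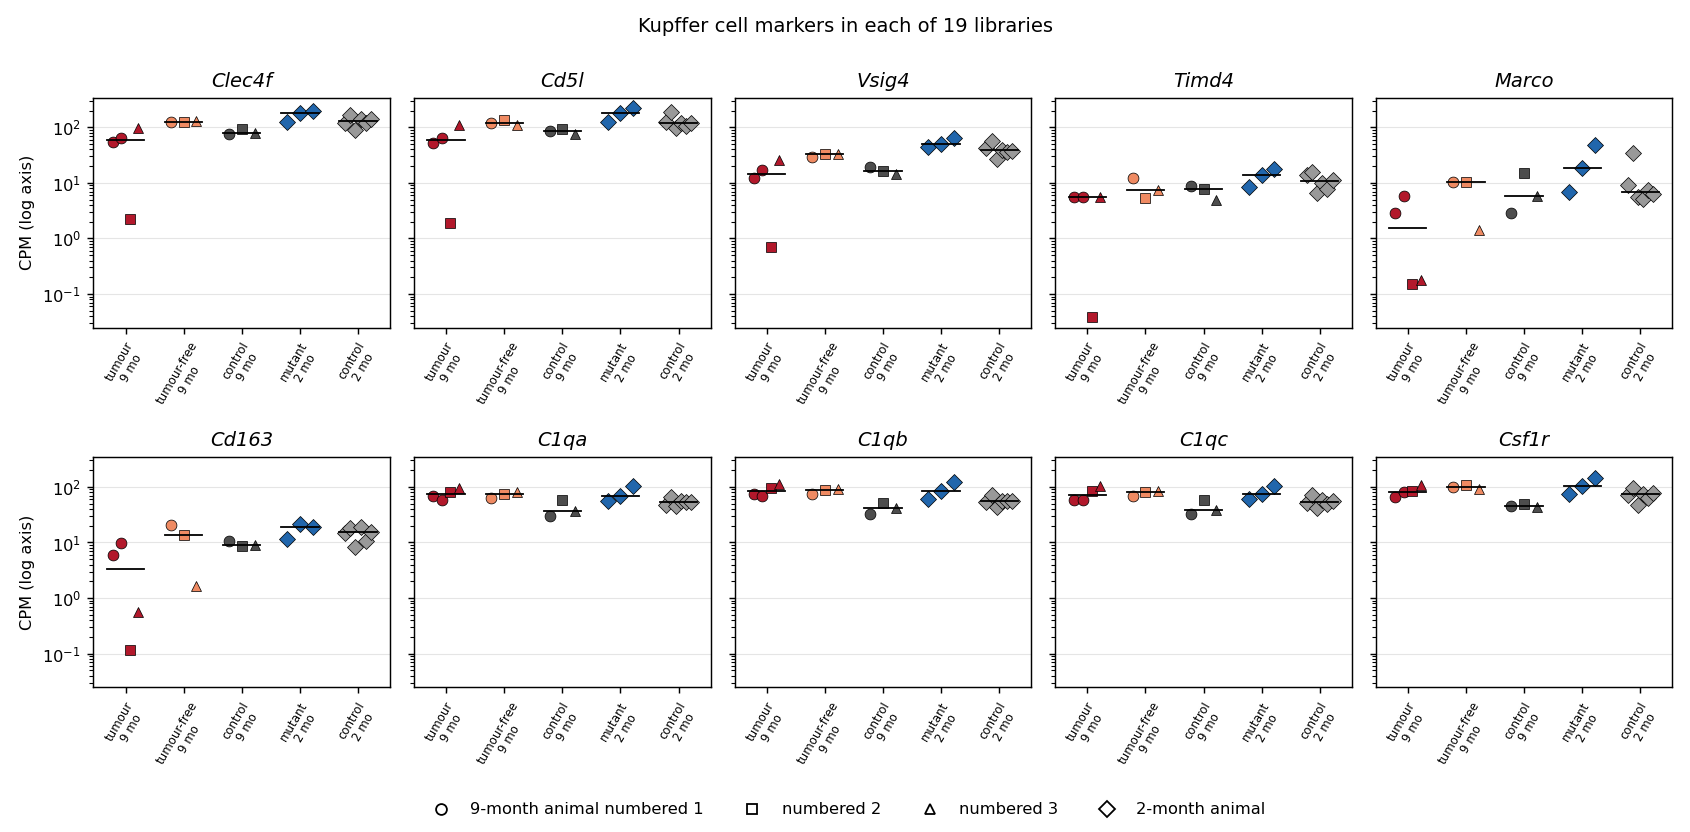
CPM of each member (log axis) in each of 19 libraries, by group, with the group median of libraries as a bar and marker shapes for the 9-month animal number. The tumour of mutant 2 (red square) stands at 2.23 CPM or less for the 6 resident members and at 81.99 to 96.9 CPM for the 3 C1q chains.

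The comparison of 3 mutants with 6 controls at 2 months shows the markers early after the transgene was switched on. The 3 C1q chains rose, by 0.52 to 0.67 on the log2 scale, and no member fell. C1qb stood at 60.6, 84.3 and 122.2 CPM in mutants, against a lowest, median and highest of 44.0, 55.4 and 72.1 CPM in controls (log2 change 0.67 ± 0.197 SE, adjusted p = 0.0181, edgeR quasi-likelihood test with Benjamini-Hochberg adjustment). C1qc stood at 61.2, 73.8 and 105.1 CPM in mutants, against 42.1, 53.4 and 70.3 CPM in controls (0.57 ± 0.181, adjusted p = 0.0264). C1qa stood at 55.6, 68.1 and 105.4 CPM in mutants, against 45.9, 53.4 and 66.6 CPM in controls (0.52 ± 0.182, adjusted p = 0.0392). For each chain mutant 3 was the highest library and mutant 1 lay inside the range of the controls.

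The other 7 members did not pass at 2 months. Csf1r stood at 107.9 ± 36.5 CPM in mutants and 71.5 ± 15.96 CPM in controls (log2 change 0.60, adjusted p = 0.0566). Clec4f, a lectin that in mice marks Kupffer cells, stood at 166.8 ± 35.9 CPM in mutants and 130.9 ± 26.7 CPM in controls (0.35, adjusted p = 0.155). Cd5l, a secreted protein of tissue macrophages, stood at 177.1 ± 47.8 CPM in mutants and 126.1 ± 31.8 CPM in controls (0.50, adjusted p = 0.0822). The remaining 4, Vsig4 (0.41), Timd4 (0.30), Cd163 (0.27) and Marco (1.13), had adjusted p from 0.116 to 0.447. Of the 10 members 3 were called, all higher, where 42.7% of all 13773 genes tested were called, 22.3% higher and 20.4% lower. The median log2 change was 0.508 over the members and 0.0105 over all genes. Of all genes called 52.1% were higher, or 77.7% with scaling by library size alone, which moved the median of all genes to 0.286 and called 7 members. The 3 calls were lost without mutant 3 (0 members, adjusted p of 0.131 to 0.296), and 7 members were called without control 2. Over 16 alternatives C1qa was called in 5 (adjusted p of 0.00764 to 0.296), C1qc in 13 and C1qb in 14.

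Genes of macrophages in general had a larger median change at 2 months, a difference that was not tested. Of 14 pan-macrophage genes 12 rose and none fell (median 0.808), among them Cd68, a lysosomal protein (2.69 ± 0.206, adjusted p = 2.9e-06), and Cd14, a receptor for bacterial lipopolysaccharide (2.88 ± 0.301). Of 10 genes of lipid-associated macrophages 7 rose and none fell (median 2.01), with the lectin Lgals3 at 4.22 ± 0.197 and the tetraspanin Cd63 at 3.86 ± 0.232, though tissue cells other than macrophages can carry both. Of the 7 monocyte genes tested 4 rose and none fell, among them the chemokine receptors Cx3cr1 (2.73 ± 0.476) and Ccr2 (1.91 ± 0.373). Among 16 other genes of Kupffer cells 5 rose and 2 fell. The 2 with the smallest adjusted p are ones that hepatocytes or other cells also carry, Hpgd, which breaks down prostaglandins (1.39 ± 0.14), and the membrane receptor Paqr9 (-2.23 ± 0.268).

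Counts for signals and partners of the members stand beside 42.7% of all genes called at 2 months, 22.3% higher and 20.4% lower. Csf1 rose (1.16, adjusted p = 0.00316) and stood at 32.4 ± 13 CPM in mutants against 14.6 ± 3.93 CPM in controls, and Il34 rose (0.84, adjusted p = 0.0121). In the list of these ligands and niche signals 5 of 12 rose and 1 fell, with the monocyte attractant Ccl2 at 3.71 ± 0.706 and Cxcl12 at -0.67 ± 0.118. Among 13 Kupffer cell transcription factors 3 rose and 2 fell, with Spi1, the gene of PU.1, at 0.65 ± 0.152 and Nr1h3, the gene of LXR alpha, which hepatocytes also express, at -0.66 ± 0.0956. Complement genes that act with C1q went mostly the other way, with 7 of 10 lower and 2 higher (median -0.502), led by C2 (-1.39 ± 0.14) and the C1 inhibitor Serping1 (-0.80 ± 0.102). C3, whose fragments Vsig4 binds, did not pass (0.30, adjusted p = 0.242). Haptoglobin (Hp), whose complex with haemoglobin Cd163 takes up, fell by 2.21 on the log2 scale, and Hpx by 0.81. Of 10 genes for the uptake of dying cells 5 rose and none fell, with Mfge8, a bridging protein, at 3.54 ± 0.235 and Elmo1 at 2.64 ± 0.185. Among 11 scavenger receptors besides Marco and Cd163, 2 rose and 1 fell, with Msr1 at 0.61 ± 0.186 and Scarf1 at -0.47 ± 0.15.

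Markers of other liver cells were counted at 2 months in the same way. Of 7 hepatocyte genes 4 fell and 1 rose, with Asgr2 at -1.95 ± 0.13 and Alb at -1.72. Of 10 sinusoidal endothelial genes 2 rose and none fell (median 0.122), where 22.3% of all genes rose and 20.4% fell. Their summed level ran from 353.6 to 480.3 CPM in mutants and from 257.7 to 461.8 CPM in controls, and these overlapped. Of 8 stellate cell genes 5 rose and none fell. The part of these cells in the members' changes was not tested.

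At 9 months, tumour-free tissue of the mutants against controls (n = 3 each) asks the same of liver next to tumours. Of the 10 members 7 rose and none fell, where 34.9% of all 14352 genes tested were called, 18.1% higher and 16.8% lower. Of all genes called 51.9% were higher, or 82.9% with scaling by library size alone, which moved the median of all genes to 0.425. The median log2 change was 0.713 over the members and -0.00878 over all genes. Csf1r had the smallest adjusted p and stood at 101.8, 106.7 and 90.9 CPM in tumour-free tissue, against 44.8, 49.3 and 42.7 CPM in controls (1.12 ± 0.132, adjusted p = 0.000402). Vsig4, a complement receptor, stood at 28.9, 32.8 and 33.5 CPM in tumour-free tissue, against 19.3, 16.4 and 14.3 CPM in controls (0.92 ± 0.149, adjusted p = 0.00207). C1qb stood at 74.5, 88.8 and 93.8 CPM in tumour-free tissue, against 32.6, 51.97 and 42.2 CPM in controls (1.01 ± 0.195, adjusted p = 0.00493). The tumour-free libraries lay above every control library for each of these 3 genes.

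Clec4f stood at 122.7, 127.3 and 131.8 CPM in tumour-free tissue, against 76.4, 95.2 and 78.7 CPM in controls (0.60 ± 0.141, adjusted p = 0.012). Cd5l averaged 121 ± 12.7 CPM in tumour-free tissue and 84.7 ± 7.20 CPM in controls (0.51 ± 0.141, adjusted p = 0.0245). C1qc (0.86 ± 0.219, adjusted p = 0.0176) and C1qa (0.82 ± 0.239, adjusted p = 0.0293) rose with them. None of these 4 genes had overlapping groups.

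Timd4, Marco and Cd163 did not pass in tumour-free tissue. Timd4, a receptor for the phosphatidylserine of dying cells, averaged 8.39 ± 3.63 CPM there and 7.05 ± 1.92 CPM in controls (0.24, adjusted p = 0.614). Cd163 stood at 20.3, 13.9 and 1.68 CPM in tumour-free tissue, against 10.6, 8.71 and 9.13 CPM in controls (0.33, adjusted p = 0.765). Marco, a scavenger receptor for bacteria and particles, stood at 10.3, 10.2 and 1.41 CPM in tumour-free tissue, against 2.89, 15.3 and 5.81 CPM in controls (-0.15, adjusted p = 0.914). In both genes mutant 3 was the low library, and without it Cd163 passed (0.87, adjusted p = 0.0239). Leaving out control 3 left 3 members called, and a single fit over all 5 groups left 4, the shared members. In that fit the calls of Vsig4 (adjusted p = 0.287), Clec4f (adjusted p = 0.531) and Cd5l were lost, so that no resident member was called higher. Leaving out the 9-month libraries numbered 1, whose control was high in Jun, left 6.

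Counts for other lists in tumour-free tissue stand beside 34.9% of all genes called, 18.1% higher and 16.8% lower. Of 14 pan-macrophage genes 11 rose and none fell (median 0.991), with Cd68 at 2.46 ± 0.197 and Mpeg1, a pore-forming protein of macrophages, at 1.87 ± 0.203. Adgre1, which encodes F4/80, rose by 1.37 on the log2 scale (adjusted p = 0.00199). Among 10 genes of lipid-associated macrophages 8 rose and none fell, with Cd63 at 3.87 ± 0.428 and Lgals3 at 4.77 ± 0.536. Among 16 other Kupffer cell genes 7 rose and 2 fell, with Paqr9 at -3.41 ± 0.171 and the nuclease Dnase1l3 at -0.78 ± 0.138. Il34 rose by 1.70 ± 0.305 and Csf1 by 0.62 (adjusted p = 0.0181), 2 of 4 that rose among 12 niche signals. Nr1h3 fell by 0.71 and Maf rose by 0.54 ± 0.12, 2 of 3 called among 13 transcription factors. Of 10 sinusoidal endothelial genes 5 fell and 2 rose, and of 8 stellate cell genes 7 rose and none fell. Of 7 hepatocyte genes 4 fell and none rose, with Asgr2 at -2.09 ± 0.131 and Alb at -1.72 ± 0.164. The summed hepatocyte level ran from 45920 to 47280 CPM in tumour-free tissue and from 114300 to 121400 CPM in controls. The part of these cells in the members' changes was not tested.

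**Figure D2:**
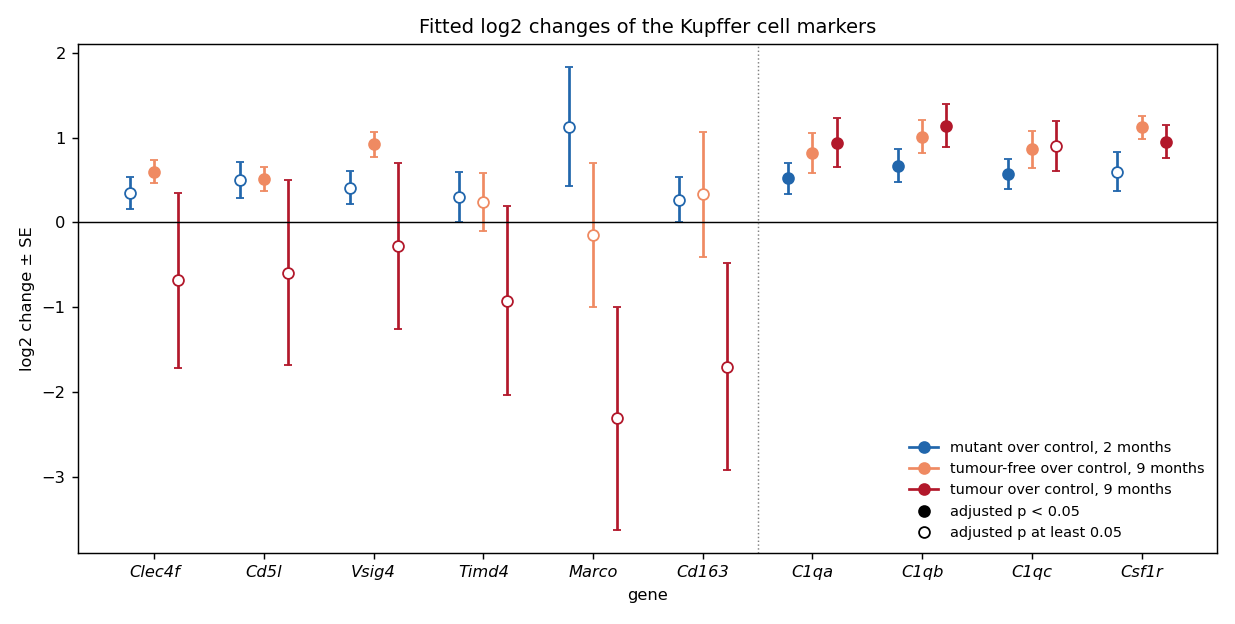
Fitted log2 change ± SE of each member in 2-month mutants, tumour-free tissue and tumours, each over the controls of its time, with filled points for adjusted p under 0.05 and a dotted line between the 6 resident and the 4 shared members. The tumour points of the 4 shared members lie between 0.90 and 1.14, and those of the resident members between -2.31 and -0.28 with SE of 0.981 to 1.31.

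In tumours against controls (n = 3 each), C1qa, C1qb and Csf1r rose. Of the 10 members 3 rose, all of the shared class, and none fell, where 25.1% of all 14332 genes tested were called, 13.8% higher and 11.3% lower. Of all genes called 54.9% were higher, or 85.1% with scaling by library size alone, which moved the median of all genes to 0.475. The median over the members was -0.437 and that over all genes 0.0149. Csf1r stood at 74.2, 84.3 and 109 CPM in tumours, in the order of the mutants' numbers, against 44.8, 49.3 and 42.7 CPM in controls (0.95 ± 0.196, adjusted p = 0.0143). C1qb stood at 72.0, 96.9 and 113.8 CPM in tumours, against 32.6, 51.97 and 42.2 CPM in controls (1.14 ± 0.253, adjusted p = 0.0184). C1qa stood at 63.8, 81.99 and 97.1 CPM in tumours, against 30.2, 57.2 and 37.5 CPM in controls (0.94 ± 0.285, adjusted p = 0.0498). Every tumour lay above every control for these 3 genes. C1qc did not pass (0.90 ± 0.292, adjusted p = 0.06), though it did in 6 of 15 alternatives, DESeq2 (adjusted p = 0.0286) and the single fit over all groups (0.00641) among them. Without control 1 or without control 3 none of the 3 calls held (adjusted p of 0.0599 to 0.172).

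No resident member passed in tumours, and the tumours differed widely from each other. Clec4f stood at 59.4, 2.23 and 96.4 CPM in tumours, against 76.4, 95.2 and 78.7 CPM in controls (-0.68 ± 1.03, adjusted p = 0.663). Cd5l stood at 58.9, 1.88 and 110.1 CPM in tumours, against 85.3, 91.7 and 77.3 CPM in controls (-0.59 ± 1.09, adjusted p = 0.724). Marco stood at 4.42, 0.154 and 0.175 CPM in tumours, against 2.89, 15.3 and 5.81 CPM in controls (-2.31 ± 1.31, adjusted p = 0.24). For Clec4f and Cd5l the tumours of mutants 1 and 2 lay below every control and that of mutant 3 above every control. For Marco the tumours of mutants 2 and 3 lay below every control and that of mutant 1 inside their range. Without the tumours of mutant 1 both Marco (-5.55, adjusted p = 0.0101) and Cd163 (-4.79, adjusted p = 0.00307) passed as lower. Without all 9-month libraries numbered 1, Marco (-5.99, adjusted p = 0.00954) and Cd163 (-4.73, adjusted p = 0.0185) passed as well, and C1qb was the one member called higher. The direction of Vsig4 (-0.28, adjusted p = 0.86) turned without mutant 2 (0.30) and under scaling by library size alone (0.14).

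Pan-macrophage genes rose in tumours in 10 of 14 and fell in none (median 1.32), with Cd14 at 3.15 ± 0.397, Mpeg1 at 1.34 ± 0.196, Cd68 at 2.99 and Adgre1 at 1.41. Among the 16 other Kupffer cell genes none rose and 2 fell, where 13.8% of all genes tested rose and 11.3% fell. The 2 were Dnase1l3 (-1.62 ± 0.194) and Paqr9 (-5.16 ± 1.14), and hepatocytes or other cells also carry Paqr9. The cells behind the fall of either gene were not tested. Nr1h3 fell by 1.07 and Zeb2, a factor that maintains macrophage identity, rose by 0.77 ± 0.157. Csf1 rose by 0.97 (adjusted p = 0.023), and of 12 niche signals 4 rose and 1 fell, with the Notch ligand Dll4 at 1.73 ± 0.213 and the adhesion molecule Vcam1 at 1.59 ± 0.226. Of 8 monocyte genes tested 3 rose and none fell, with Cx3cr1 at 3.56 ± 0.597 and the integrin Itgam at 1.69 ± 0.417. Of 10 sinusoidal endothelial genes 1 rose, Flt4 (2.91 ± 0.637), and 1 fell, Fcgr2b (-1.24 ± 0.148). Of 8 stellate cell genes 2 rose and none fell, and of 7 hepatocyte genes 3 fell and none rose, with Asgr2 at -1.83 ± 0.265 and Apoa1 at -2.07 ± 0.338. The summed hepatocyte level ran from 48900 to 75150 CPM in tumours and from 114300 to 121400 CPM in controls. The part of these cells in the members' levels was not tested.

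Tumours against tumour-free tissue of the same mice (n = 3 each) ask what differs inside one liver. The edgeR test called 0 of the 10 members, and 0 had an unadjusted p under 0.05. DESeq2 and limma voom also called 0, as did the fit with the animal as a block. Of all 14566 genes tested 0.0137% were called. The fitted log2 changes ran from -2.15 (Marco, SE 1.35) to 0.13 (C1qb, SE 0.206), with a median of -1.12 over the members and 0.0241 over all genes.

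The 3 mice differed from each other in this comparison. In mutant 2 the tumour had 58 counts of Clec4f against 3291 in tumour-free tissue, a ratio of CPM of 0.0175 (95% counting interval 0.0133 to 0.0227). It had 49 counts of Cd5l against 3463 (ratio 0.0140), 18 of Vsig4 against 847 (0.0211) and 4 of Marco against 264 (0.0150). It had 1 count of Timd4 against 139 (0.00714, interval 0.000179 to 0.0404) and 3 of Cd163 against 359 (0.00829, interval 0.0017 to 0.0244). Clec4f was 57.2-fold lower (interval 44.1 to 75.5), Cd5l 71.2-fold (53.8 to 96.5), Vsig4 47.4-fold (29.8 to 80.4) and Marco 66.5-fold (25.7 to 245.9) in that tumour. The same tumour had 2136 counts of C1qa against 1958 (ratio 1.08), 2524 of C1qb against 2295 (1.09), 2158 of C1qc against 2069 (1.04) and 2196 of Csf1r against 2759 (0.790). These intervals cover counting error only, since each ratio rests on 1 pair of libraries.

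In mutant 3 the tumour kept most resident members and had few counts of Marco and Cd163. Clec4f had 2199 counts in the tumour against 2988 in tumour-free tissue (ratio 0.732), Cd5l 2512 against 2464 (1.01), Vsig4 600 against 759 (0.786) and Timd4 129 against 167 (0.768). Marco had 4 counts against 32 (0.124, interval 0.0319 to 0.350) and Cd163 13 against 38 (0.340, interval 0.166 to 0.653). Both were low in the tumour-free tissue of that mouse as well, at 1.41 and 1.68 CPM, under every other library outside the tumours. The 4 shared members had ratios of 1.18 to 1.21 there. Cd163 takes up haemoglobin bound to haptoglobin. Of the 12 genes of the haem and iron list 11 lay above a ratio of 1 in this mouse (median 2.62), against 5 of 12 in each of the other mice. Of all genes with at least 20 counts in tumour-free tissue, 6713 of 13183 lay above 1 in this mouse. In mutants 1 and 2, 6155 of 12949 and 6558 of 13337 did. A link to Cd163 was not tested, and neither gene called in tumours against tumour-free tissue was on the haem and iron list. The haem oxygenase Hmox1 (5.12) and the iron exporter Slc40a1 (4.17) were chosen from it after their values were seen.

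In mutant 1, whose 2 tumours were summed, all 6 resident members stood at 0.393 to 0.508 of their level in tumour-free tissue. Clec4f had 59.4 CPM against 122.7 and Cd163 had 7.98 CPM against 20.3. Its 2 tumours had Clec4f at 54.5 and 63.9 CPM, Cd5l at 52.8 and 64.5 CPM and Timd4 at 5.61 and 5.66 CPM. They lay further apart in Vsig4 (12.09 and 17.03 CPM), Cd163 (5.96 and 9.82 CPM) and Marco (2.87 and 5.82 CPM). C1qa and C1qb stood at 0.990 and 0.967 of the tumour-free level, C1qc at 0.849 and Csf1r at 0.729. Every resident member had a lower ratio than every shared member in each of the 3 mice. The classes were drawn with earlier results of these data known, so this split is a description and not a test.

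**Figure D3:**
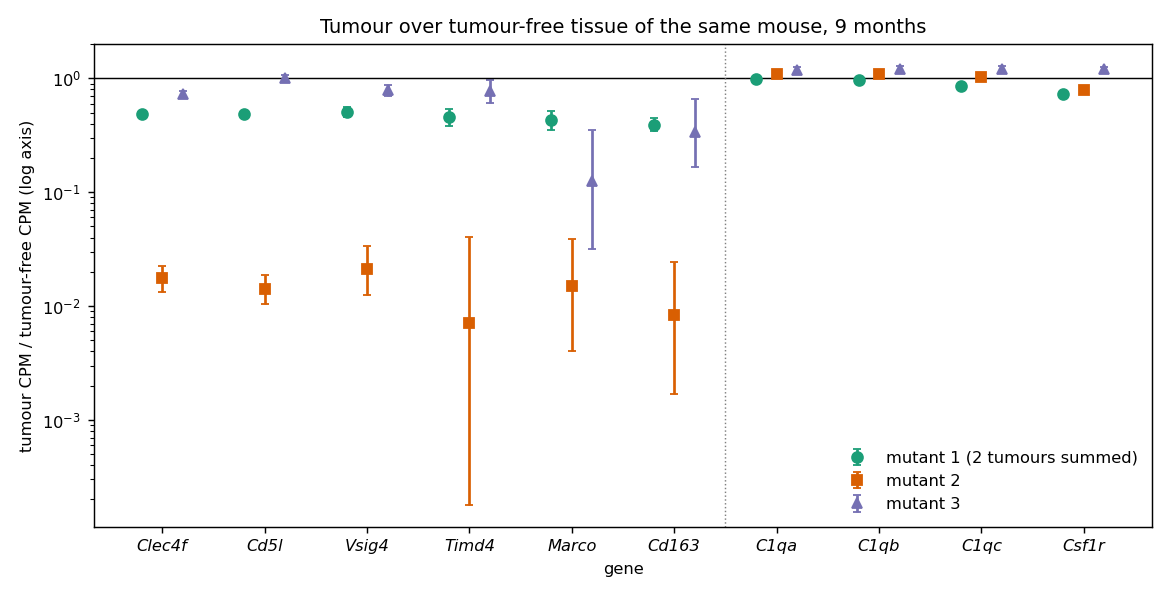
Ratio of tumour to tumour-free CPM (log axis) for each member in each of 3 mice, with 95% counting intervals and a dotted line between the 6 resident and the 4 shared members. The squares of mutant 2 lie between 0.00714 and 0.0211 for the resident members and between 0.790 and 1.09 for the shared members.

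Count ratios between members, which need no scaling of the libraries, show the same order. Clec4f over Csf1r lay between 0.0264 and 0.885 in tumours and between 1.19 and 1.45 in tumour-free tissue, against 1.71 to 1.93 in 9-month controls, with no overlap among the 3 groups. Without the tumour of mutant 2 the lowest tumour ratio was 0.792. In 2-month mutants the ratio lay between 1.32 and 1.75, against 1.67 to 1.95 in controls, and these overlapped. Cd5l over Csf1r at 9 months lay at 0.0223 to 1.01 in tumours, 1.182 to 1.255 in tumour-free tissue and 1.811 to 1.904 in controls. Vsig4 over Csf1r lay at 0.0082 to 0.241 in tumours, and overlapped between tumour-free tissue (0.284 to 0.368) and 9-month controls (0.333 to 0.430). Some ratios within a class held over a narrow range, also in the tumour of mutant 2. Cd5l over Clec4f ran from 0.825 to 1.15 over all 19 libraries, C1qa over C1qc from 0.907 to 1.18 and C1qb over C1qc from 0.903 to 1.28. Cd163 over Clec4f, by contrast, ran from 0.00591 to 0.166 and Marco over Clec4f from 0.00182 to 0.249, with the tumour of mutant 3 lowest in both.

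**Figure D4:**
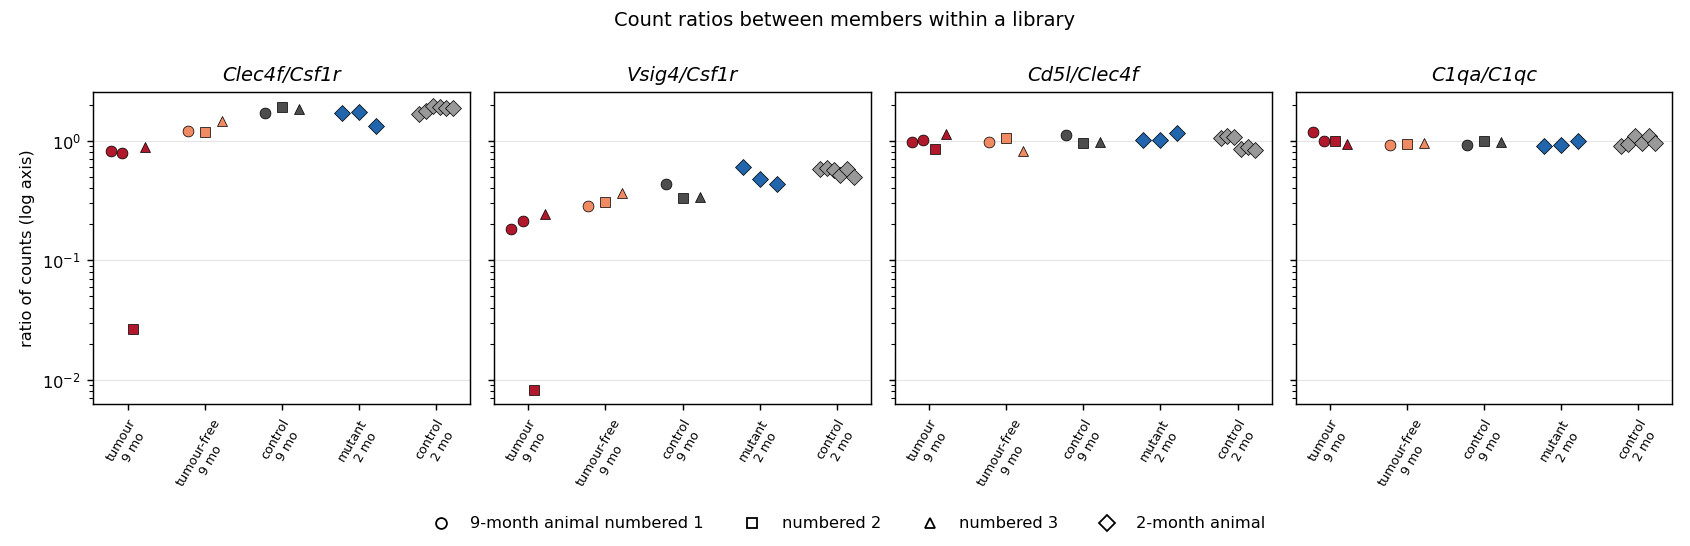
Ratio of counts (log axis) of Clec4f to Csf1r, Vsig4 to Csf1r, Cd5l to Clec4f and C1qa to C1qc within each of 19 libraries, by group, with marker shapes for the 9-month animal number. Tumours lie at 0.0264 to 0.885 for Clec4f over Csf1r and controls of 9 months at 1.71 to 1.93, while Cd5l over Clec4f stays between 0.825 and 1.15 in every library.

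Genes outside the members were compared between tumour and tumour-free tissue in the same way, over those with at least 20 counts in tumour-free tissue. In mutant 2, 6 of 16 other Kupffer cell genes lay below a ratio of 0.1, which was so for 6 of the 10 members, for 0 of 14 pan-macrophage genes and 0 of 13 transcription factors, and for 1.77% of all 13337 genes with that many counts. The 6 were Kcna2, a potassium channel (ratio 0.00855, 1 count against 116, interval 0.000215 to 0.0486), Fcna, a secreted lectin (0.0158), Paqr9 (0.0180), Folr2, a folate receptor (0.0211), the chemokine Ccl24 (0.0405, 2 counts against 49, interval 0.00477 to 0.154) and the receptor Clec1b (0.0545). Of these, Paqr9 is one that hepatocytes or other cells also carry. In the same tumour Cd68 had a ratio of 1.78, Lyz2 of 1.79 and Adgre1 of 1.31, and the median of the pan-macrophage list was 1.32. Spic (1.21) and Spi1 (1.05) had similar levels in both tissues, Nr1h3 stood at 0.685 and Id3, which Kupffer cells need, at 0.241. Of 8 monocyte genes 4 lay above a ratio of 1 and 4 below it in that tumour, from 0.233 to 3.30 (Cx3cr1) with a median of 1.16. Of the ligands Csf1 stood at 1.66 and Il34 at 0.294.

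In mutants 1 and 3 no gene of these lists lay below 0.1, where 0.332% and 0.842% of all genes did. The median ratio of the other Kupffer cell genes was 0.583 in mutant 1 and 1.07 in mutant 3. Fcna stood at 0.472 and 0.712 in these mice, and Folr2 at 0.450 and 0.898. Sinusoidal endothelial genes were also low in the tumour of mutant 2, with a median ratio of 0.297, Clec4g at 0.0479 and Stab2 at 0.149, against medians of 0.747 in mutant 1 and 1.36 in mutant 3. Low ratios were not limited to these lists, since B and plasma cell genes (median 0.127, 6 genes) and neutrophil genes (0.258, 4 genes) stood lower still in mutant 2. The medians of T and NK cell genes (2.37, 2 genes) and dendritic cell genes (1.31, 4 genes) lay above 1 in that tumour. The niche signal Bmp10 stood at 0.0372, with 3 counts against 80 (interval 0.00752 to 0.113), and the stellate cell gene Lrat at 0.103. The part of endothelial and stellate cells in the resident members' levels was not tested. Kcna2, Clec4g, Stab2, Id3, Bmp10 and Lrat were chosen after their values were seen.

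**Figure D5:**
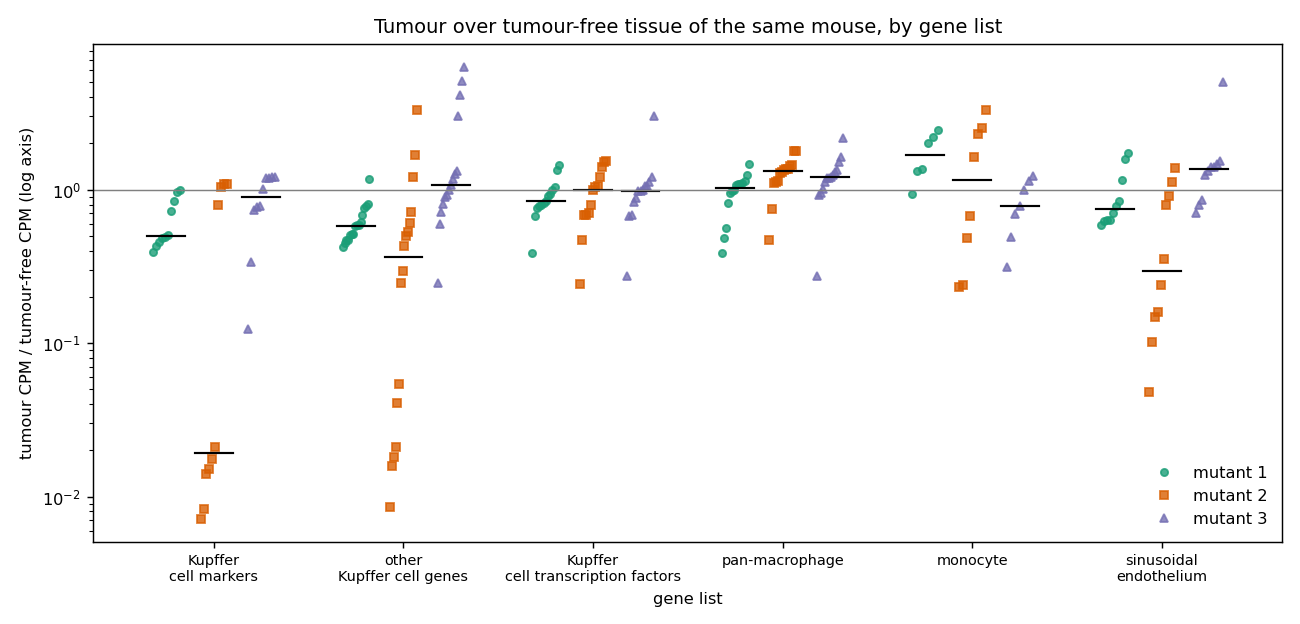
Ratio of tumour to tumour-free CPM (log axis) for each gene of 6 lists with at least 20 counts in tumour-free tissue, by mouse, with black bars for the median. In mutant 2 the members and the other Kupffer cell genes reach down to 0.00714 and 0.00855, and the pan-macrophage genes stay between 0.473 and 1.79.

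Controls of 9 months against controls of 2 months (n = 3 and 6) show the markers in control mice, in 2 sequencing runs. Of the 10 members 3 fell and none rose, where 11.9% of all 13545 genes tested were called, 7.29% higher and 4.64% lower. Vsig4 stood at 19.3, 16.4 and 14.3 CPM in 9-month controls, against a lowest, median and highest of 26.7, 38.4 and 55.9 CPM in 2-month controls (-1.27 ± 0.202, adjusted p = 0.00266). The groups did not overlap. Clec4f averaged 83.4 ± 10.2 CPM at 9 months and 130.9 ± 26.7 CPM at 2 months (-0.66 ± 0.175, adjusted p = 0.0317). Csf1r averaged 45.6 ± 3.36 CPM at 9 months and 71.5 ± 15.96 CPM at 2 months (-0.66 ± 0.183, adjusted p = 0.0371). All 10 members had a negative log2 change, with a median of -0.607 against -0.00834 over all genes, though that of Marco turned without control 2 of 2 months (0.25).

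Adgre1 fell with them between the controls (-1.10 ± 0.243), the one called of 14 pan-macrophage genes. Folr2 (-0.88 ± 0.224) and Ccl24 (-1.31 ± 0.264) fell, and no other of 16 Kupffer cell genes was called. The call of Vsig4 held without each animal in turn, while those of Clec4f and Csf1r did not, so that 1 to 5 members were called. With all 5 groups in a single fit 0 members were called, and without the 9-month libraries numbered 1 only Vsig4 was. Among the transcription factors Nr1h3 had a log2 change of 0.11 (adjusted p = 0.46). Genes of iron handling rose in 4 of 12, with Ftl1 at 0.83 ± 0.113 and Slc48a1, a haem transporter, at 0.51 ± 0.0875.

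Whether the mutant effect differed between the times was tested as the difference of the 9-month and the 2-month contrasts. For tumour-free tissue edgeR called 0 members, with 0 at an unadjusted p under 0.05 and 0 with DESeq2 or limma voom, where 1.52% of all genes were called, 0.462% higher and 1.05% lower. Of these 30.5% were higher, or 51.4% with scaling by library size alone. The differences ran from -1.26 (Marco) to 0.53 (Csf1r, SE 0.306). For tumours edgeR called 0 members, with 1 at an unadjusted p under 0.05, and DESeq2 and limma voom called 0, where 2.62% of all genes were called, 0.891% higher and 1.73% lower. Of these 34% were higher, or 52.6% with scaling by library size alone. The member under 0.05 before adjustment was Marco (-3.34 ± 1.42, adjusted p = 0.252), and Cd163 followed (-1.90 ± 1.05, adjusted p = 0.397). Without the tumours of mutant 1 both passed (Marco -6.64, adjusted p = 0.0346, and Cd163 -5.05, adjusted p = 0.000331). A member called at one time and not at the other is thus not shown to differ between them.

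The genes outside the members most like Clec4f and C1qa across 18 animal-level libraries were named by Pearson's r of log2 CPM. They were taken from 13013 genes with a mean of at least 1 CPM, a number that includes the members. Libraries share groups, runs and animals, so r is a description. For Clec4f they were Fcna (0.988), Folr2 (0.979), Foxa1 (0.953), Fabp7 (0.948) and Clec1b (0.942). Without the tumour of mutant 2 the r of Foxa1 was 0.527 and that of Clec1b 0.591, while Folr2 stayed at 0.966, Fcna at 0.895 and Fabp7 at 0.876. For C1qa they were Tyrobp, an adaptor of myeloid receptors (0.969), Cd300c2 (0.949), Pik3cd (0.947), the lysosomal protease Ctss (0.943) and Cd48 (0.941), with r of 0.937 to 0.968 without that tumour.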

How the data were processed

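Poly(A) RNA was sequenced with a stranded kit, per the labels' protocols. The authors deposited 1 table of whole-number counts per gene, which may be rounded estimates. The submitters' processing notes name RSEM, DESeq2 1.22.2, STAR 2.6.1a and bedtools 2.27.1, and the mouse builds GRCm38 and mm10. The sources used here give neither their roles nor an annotation release. Replicates were separate animals per the labels.

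From the deposited counts, edgeR 4.0.16 (R 4.3.3) was run per comparison with its default filter on low counts, TMM scaling and the quasi-likelihood test. Calls were made at a Benjamini-Hochberg adjusted p under 0.05 over all genes tested. SE is the log2 change divided by the square root of the F statistic. The test was checked on simulated counts. Depth was 14.29 to 22.06 M counts a library, and counting intervals are exact at 95%. The members and the gene lists were chosen with earlier results of these data known, and genes are named as the defining genes of each list and as those with the smallest adjusted p. Tumours and tumour-free tissue with the same number came from the same mouse per the labels, and their deviations from the group means correlated with r of 0.225, 0.307 and 0.0334. Alternatives were DESeq2 1.42.0, limma voom 3.58.1, other scalings, no filter, a single fit over all groups, a replicate block, tumours as separate libraries, and animals left out. Promoter windows came from RefSeq tables of GRCm38.p6.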

Additional observations from a re-analysis of the deposited data

Results flagged for a closer look

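Over 46 groups of 4 to 10 values, a single library stood far from the others in 6. Chance gives about 1 in 20 groups for independent, normally distributed values. These groups share genes and libraries, and the 2 tumours of mutant 1 count separately here, so the 6 were not tested against chance. In tumours, Timd4 was 0.0384 CPM in mutant 2 against 5.61 to 5.66 CPM in the other 3 libraries. The count ratio of Clec4f to Csf1r was 0.0264 in the same tumour against 0.792 to 0.885 in the others. Among 2-month controls, control 2 had 187 CPM of Cd5l against 97.6 to 128 CPM in the others. Control 2 also had 34.1 CPM of Marco against 5.12 to 9.03 CPM in the others, and a count ratio of Marco to Clec4f of 0.201 against 0.0362 to 0.074. Control 3 of that group had a count ratio of C1qc to Csf1r of 0.899 against 0.698 to 0.771.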

How the results depend on the processing

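At 2 months, 3 members were called, against 7 with scaling by library size alone, 0 with a replicate block and 0 to 7 without single animals. Over all genes the block called 3290 in place of 5883. In tumour-free tissue, 7 members were called, against 4 in a single fit over all groups and 3 to 7 without single animals. In tumours against controls, 3 members were called, against 0 to 6 without single animals. All genes called there were 3593, against 5482 with library size alone, 6612 in a single fit, 1743 without the 9-month libraries numbered 1 and 1419 to 3566 without single animals. In tumours against tumour-free tissue, 2 genes were called, against 442 with DESeq2, 0 with limma voom, 47 with no filter, 380 in a single fit, 1 with the block, 0 without the libraries numbered 1 and 0 to 63 without single animals. Between controls, 3 members were called, against 0 in a single fit, 1 with the block, 1 without the libraries numbered 1 and 1 to 5 without single animals. All genes called there were 1616, against 1056 in a single fit, 384 with the block and 797 to 1899 without single animals. For the change of effect in tumour-free tissue, 223 genes were called, against 523 with DESeq2, 54 in a single fit and 110 to 293 without single animals. For that in tumours, 0 members were called, against 2 without the libraries numbered 1 and 0 to 2 without single animals. All genes called there were 385, against 859 with DESeq2, 659 without the libraries numbered 1 and 131 to 819 without single animals. The cause was not tested.

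Member log2 changes that turned were not among those called. In tumour-free tissue Cd163 was -0.25 with limma voom, -0.09 with the block and -0.21 without the libraries numbered 1, and -0.26 to 0.87 without single animals. Marco was 0.26 with library size alone and -0.55 to 0.74 without single animals, and Timd4 -0.14 to 0.50. In tumours Vsig4 was 0.14 with library size alone and -1.09 to 0.30 without single animals. Against tumour-free tissue C1qc was -0.05 with tumours as separate libraries, and without single animals C1qc was -0.16 to 0.24, C1qa -0.04 to 0.26 and C1qb -0.04 to 0.29. Between controls Marco was -1.39 to 0.25. For the change of effect in tumour-free tissue Cd163 was -0.53 with limma voom, -0.41 without the libraries numbered 1 and -0.50 to 0.62 without single animals. Timd4 was 0.08 with library size alone and -0.41 to 0.24 without single animals, and Cd5l -0.13 to 0.25. The named genes outside the members turned under none of these settings.

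Except for tumours and tumour-free tissue, groups share only a replicate number, so a call lost with the block is not a weaker effect. Each 9-month group had 3 animals, and the resident members in the tumour of mutant 2 rest on 1 to 58 counts.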

Other observations

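B and plasma cell genes rose over controls in 1 of 7 tested in 2-month mutants, where 22.3% of all genes rose, by edgeR's adjusted p. In tumour-free tissue they rose in 1 of 6 tested, where 18.1% of all genes rose. Red blood cell genes fell in 1 of 5 in 2-month mutants, in tumour-free tissue and in tumours over their controls. In these comparisons 20.4%, 16.8% and 11.3% of all genes fell. Red blood cell genes rose in 3 of 5 in 9-month over 2-month controls, where 7.29% of all genes rose.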
